A study of Mus musculus with 20 samples.

Results

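The genes described here are 35 interferon-stimulated genes, chosen by name from the gene count table of a mouse breast tumor series, and all 35 were found among its 43346 genes. Interferons are secreted proteins that bind receptors on nearly every cell type. The receptors signal through the kinases JAK1 and TYK2 to transcription factors, among them STAT2 and IRF9 of the complex ISGF3, and ISGF3 binds a short DNA element, the interferon-stimulated response element (ISRE), near the start of its target genes. Type I interferons (alpha and beta) and type III interferons (lambda) act mainly through ISGF3, whereas interferon gamma acts mainly at another element, GAS. The targets include proteins that block viruses, sensors of foreign nucleic acid, and the transcription factors of the pathway itself. In tumors such genes can be read in cancer cells and in leukocytes alike, and in bulk RNA fewer cells of a type and less RNA per cell cannot be told apart.

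The 20 samples were breast tumors of [BALB/c-neuT x FVB/J] F1 mice, 1 tumor from each mouse. Every animal carried the neuT transgene, a rat Her2/neu oncogene inherited from the BALB/c parent, and the females developed mammary tumors spontaneously. The sample names place 9 tumors in a group Lo and 11 in a group Hi, and the labels do not say what the names stand for. No normal mammary tissue was among the samples, and genotype, strain and tissue were the same in both groups. Total counts were 38765682 to 65465755 per tumor (median 49881778.5), and the share of counts on a ribosomal RNA locus (Yam1 and AY036118) was 18.4% ± 6.08 in Lo (SD, n = 9) and 13.7% ± 3.13 in Hi (n = 11). The labelled tissue had its markers: 8 of 8 epithelial genes passed the filter on low counts, and their summed level was 3250 to 4309 CPM (counts scaled to library size) in Lo and 2827 to 4417 in Hi. The 9 leukocyte markers summed to 305 to 700.0 CPM in Lo and 369 to 518 in Hi.

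The element itself can be read in the promoters of several of the 35 genes. Of the 35, 25 had a promoter in the RefSeq table used here (build GRCm38.p6, 250 bases before to 50 after the start site). The ISRE pattern, GAAA and GAAA with any 2 bases between them, was searched on both strands. It stood in 13 of these 25 (52%), and in 1079 of the 27025 genes in the table (3.99%). The GAS pattern, TTC and GAA with any 3 bases between them, stood in 4 of the 25 (16%) and in 9.55% of all genes. A match describes letters in this window and is not evidence of binding. The windows below are shown because they carry the element, which is in capitals (TTTC and TTTC in place of GAAA and GAAA is the same pattern on the other strand), for genes whose values follow. All are read 5′ to 3′ on the strand of the gene, and all lie upstream of the start site.
Isg15, chr4:156200860-156200911, minus strand: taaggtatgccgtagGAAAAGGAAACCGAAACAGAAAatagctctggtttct
Ifit1, chr19:34640770-34640828, plus strand: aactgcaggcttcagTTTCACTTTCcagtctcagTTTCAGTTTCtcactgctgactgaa
Oas3, chr5:120777710-120777749, minus strand: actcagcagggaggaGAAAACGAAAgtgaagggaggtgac
Gbp2, chr3:142620589-142620628, plus strand: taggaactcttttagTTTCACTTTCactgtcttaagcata
Stat2, chr10:128270261-128270300, plus strand: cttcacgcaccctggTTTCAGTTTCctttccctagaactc

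The Isg15 window holds 3 overlapping copies, from 78 to 57 bases before the start site, and Ifit1 holds 2 separate copies. Oas3, Gbp2 and Stat2 hold 1 each. The match in Ddx58 lay just after its start site, at bases 3 to 12, and that in Ifih1 at bases 33 to 42. Irf7, Irf9, Herc6, Ifi44, Ifi35 and Dtx3l had a promoter in the table but no match in it.

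All 35 genes were expressed, and all passed the filter on low counts, with 43 to 8281 counts per tumor. Levels between genes are compared per length, as RPKM (CPM divided by the listed gene length in kb). The highest median levels over the 20 tumors were 51.3 RPKM for Bst2, which encodes tetherin, a protein that holds budding viruses at the cell surface, and 45.1 RPKM for Ifi27l2a. The lowest was 0.55 RPKM for Oas3, one of the oligoadenylate synthetases that activate RNase L.

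Tumors differed in these genes far more than in most genes. The SD of log2 CPM over the 20 tumors had a median of 0.84 for the 35 genes and 0.25 over the 18883 genes that passed the filter. All 35 were above that second median, from 0.33 for Ifi35 to 1.2 for Usp18. The highest tumor exceeded the lowest by 2.32-fold (Ifi35) to 22.5-fold (Usp18), with a median of 8.10-fold.

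The same few tumors stood at the ends for nearly every gene. Lo 2 was the highest tumor for 19 of the 35 genes, Lo 1 for 14 and Lo 4 for 2. Hi 1 was the lowest for 32, Hi 10 for 2 and Lo 3 for 1. Each gene's log2 CPM was set against its own mean over the tumors, and the median of these deviations over the 35 genes was 1.67 in Lo 1, 1.61 in Lo 2, 1.09 in Lo 4, 0.70 in Lo 8 and 0.40 in Hi 2. At the other end it was -1.36 in Hi 1, -0.85 in Hi 10, -0.71 in Lo 3 and -0.50 in Hi 7. The remaining 11 tumors lay between -0.48 and 0.16. In the plot of deviations by tumor, the columns of Lo 1, Lo 2 and Lo 4 are raised and that of Hi 1 is lowered in every group of genes.

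**Figure D1:**
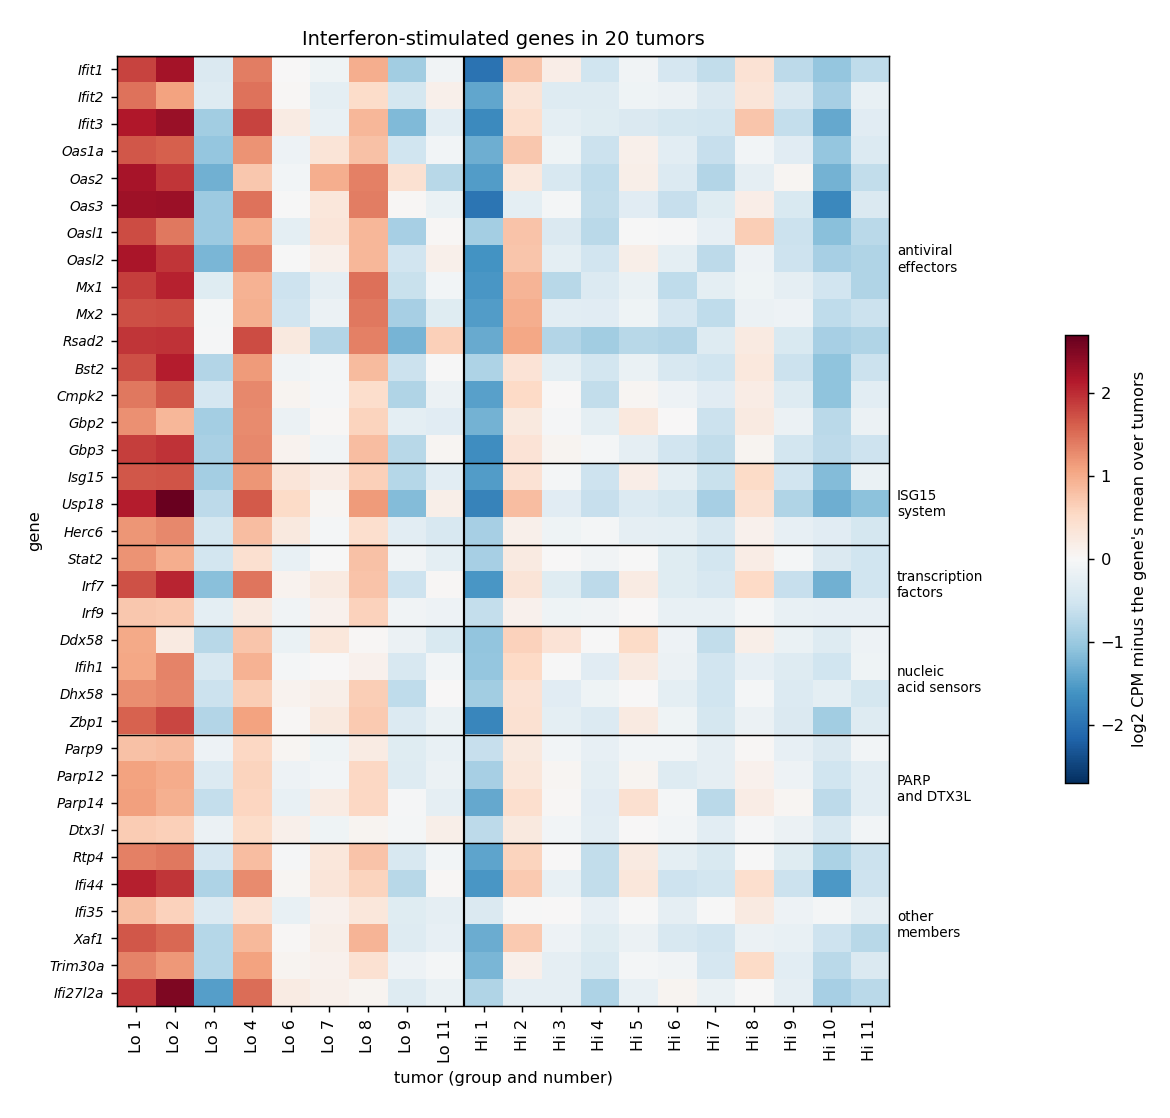
Deviation of log2 CPM from the mean of each gene over the 20 tumors (color), for the 35 genes (rows, grouped by role) and the tumors (columns, 9 Lo and 11 Hi, in the order of their numbers). Lo 1 and Lo 2 are the highest columns, with medians of 1.67 and 1.61, and Hi 1 is the lowest, with -1.36.

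The pairwise Pearson correlation of log2 CPM over the 20 tumors had a median of 0.92 over the 595 pairs of these genes, with a range of 0.54 to 0.98. Over all pairs of the 18883 genes the median was -0.00. The pairs share libraries and scaling, so the values are a description. The median was 0.90 after the means of Lo and Hi were removed, 0.92 after regression on a score of leukocyte markers, and 0.86 without the 2 tumors farthest from the others in these genes (Lo 1 and Lo 2). Ddx58, which encodes the RNA sensor RIG-I, stood most apart from the others, with a median r of 0.75 and its lowest value, 0.54, with Rsad2.

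The first comparison asked whether the tumors named Lo and Hi differed in these genes. Every one of the 35 was higher in Lo on average, and none passed the adjusted threshold of 0.05 (edgeR's quasi-likelihood test, Benjamini-Hochberg over all 18883 genes). No gene of the table passed it, so the background was 0%, and DESeq2 called 1 gene, none of the 35. At an unadjusted p below 0.05, 33 of the 35 were higher in Lo, against 3.5% of all genes in that direction; the exceptions were Ddx58 (p = 0.369) and Ifi35 (p = 0.0537). The log2 difference, Lo minus Hi, had a median of 0.93 over the 35 and 0.00 over all genes, and ran from 0.20 for Ddx58 to 1.64 for Oas3. It rested on part of the Lo group: the ratio of group means had a median of 1.90 over the 35 genes, and the ratio of group medians 1.41. For all 35 genes the groups overlapped, and for 23 of them exactly 4 Lo tumors lay above the highest Hi tumor. These 2 counts were not made over all genes, so they have no background. The 35 genes also vary together over the tumors, so the counts are not separate observations.

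Isg15 encodes a ubiquitin-like protein that is attached to other proteins (mm10 chr4:156199424-156200818). Its level in Lo was 6.69 CPM in the lowest tumor, 15.9 in the median tumor and 41.3 in the highest, and in Hi 4.43, 10.5 and 18.2. Lo 1, Lo 2, Lo 4 and Lo 8 lay above every Hi tumor, and the other Lo tumors lay within the range of Hi. The difference was 0.93 ± 0.32 on the log2 scale (SE, unadjusted p = 0.00772, adjusted p = 0.701). Usp18, the protease that removes ISG15 and dampens the type I receptor (chr6:121245906-121270916), showed the widest range of the 35. It ran from 4.50 CPM over a median of 14.5 to 65.0 in Lo and from 2.89 over 6.60 to 18.1 in Hi. The difference was 1.61 ± 0.41 (adjusted p = 0.593), with 4 Lo tumors above all of Hi. Herc6, a ligase of the ISG15 system (chr6:57580992-57665136), had a narrower range of 10.1, 17 and 34.6 CPM in Lo and 7.54, 11.9 and 15.5 in Hi.

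The transcription factors of the pathway differed in amplitude among themselves. Irf7, which drives interferon genes and is itself induced (chr7:141262706-141266481), had 18.5 CPM in the lowest, 48.3 in the median and 170 in the highest Lo tumor, and 13.6, 30.2 and 59.2 in Hi. Stat2, the ISGF3 subunit that carries the main activation domain (chr10:128270576-128292849), had 20.3, 28.4 and 66.4 CPM in Lo and 15.3, 26.9 and 33.8 in Hi. Irf9, the DNA-binding subunit of ISGF3 (chr14:55603571-55610030), was the steadiest of the 3, with 52.4, 68.0 and 105 CPM in Lo and 40.4, 54.7 and 68.0 in Hi. The highest tumor exceeded the lowest by 12.4-fold for Irf7, 4.34-fold for Stat2 and 2.59-fold for Irf9. Their differences between the groups were 1.16 ± 0.34, 0.56 ± 0.20 and 0.41 ± 0.12 on the log2 scale, with adjusted p of 0.655, 0.704 and 0.655.

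Among the 15 antiviral effectors (the Ifit, Oas and Mx families, Rsad2, Bst2, Cmpk2, Gbp2 and Gbp3), all 15 were higher in Lo at an unadjusted p below 0.05, beside 3.5% of all genes, with a median difference of 1.15. Oas3 (chr5:120753098-120777661) had 1.68, 4.16 and 16.8 CPM in the lowest, median and highest Lo tumor and 0.829, 2.55 and 3.84 in Hi, and 5 Lo tumors lay above all of Hi. Its difference of 1.64 ± 0.37 was the largest of the 35 (unadjusted p = 0.000199, adjusted p = 0.475). Gbp2, a guanylate-binding GTPase that acts on membranes of intracellular pathogens (chr3:142620602-142638008), varied least in this group, with 14.4, 28.0 and 66.5 CPM in Lo and 11.3, 24.6 and 33.7 in Hi.

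The 4 sensors bind foreign nucleic acid. Zbp1, a sensor of Z-form nucleic acid (chr2:173206612-173218923), had 10.9, 22.6 and 66.0 CPM in the lowest, median and highest Lo tumor and 5.57, 14.8 and 25.1 in Hi. Ddx58 (chr4:40203773-40239828) had 23.0, 39.6 and 78.2 in Lo and 18.4, 35 and 59.2 in Hi. Only 2 Lo tumors, Lo 1 and Lo 4, were above all of Hi for Ddx58, and its difference was 0.20 ± 0.21.

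The 4 genes of ADP-ribosylation, Parp9, Parp12, Parp14 and Dtx3l (DTX3L is the ubiquitin ligase that partners PARP9), had lower amplitudes. Parp14 (chr16:35832874-35871544) had 20.2, 36.8 and 68.0 CPM in the lowest, median and highest Lo tumor and 12.2, 30.2 and 43.2 in Hi. Dtx3l (chr16:35926511-35939151) had 40.7, 49.7 and 72.2 in Lo and 27.5, 42.8 and 54.1 in Hi. Parp9 shares 5854 bases in the table with Gm15564, which had more counts (153953 over all tumors, beside 55409 for Parp9), and 682 bases with Dtx3l. The strand setting of the counting is not given in the sources used here, so reads in such overlaps cannot be told apart. Of the other 6 genes, Ifi44 (chr3:151730922-151749947) had the largest SD, with 12.4, 27.6 and 94.5 CPM in Lo and 7.38, 15 and 35.9 in Hi. Ifi35 (chr11:101448407-101458698) had the smallest, with 23.0, 32.3 and 52.3 in Lo and 22.6, 28.5 and 35.4 in Hi. In both genes the Lo and Hi tumors overlapped. Ifi35 shares 815 bases with Gm11626 (8325 counts, beside 31316 for Ifi35), and the sensor gene Dhx58 shares 2637 bases with Dhx58os, under the same limit.

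**Figure D2:**
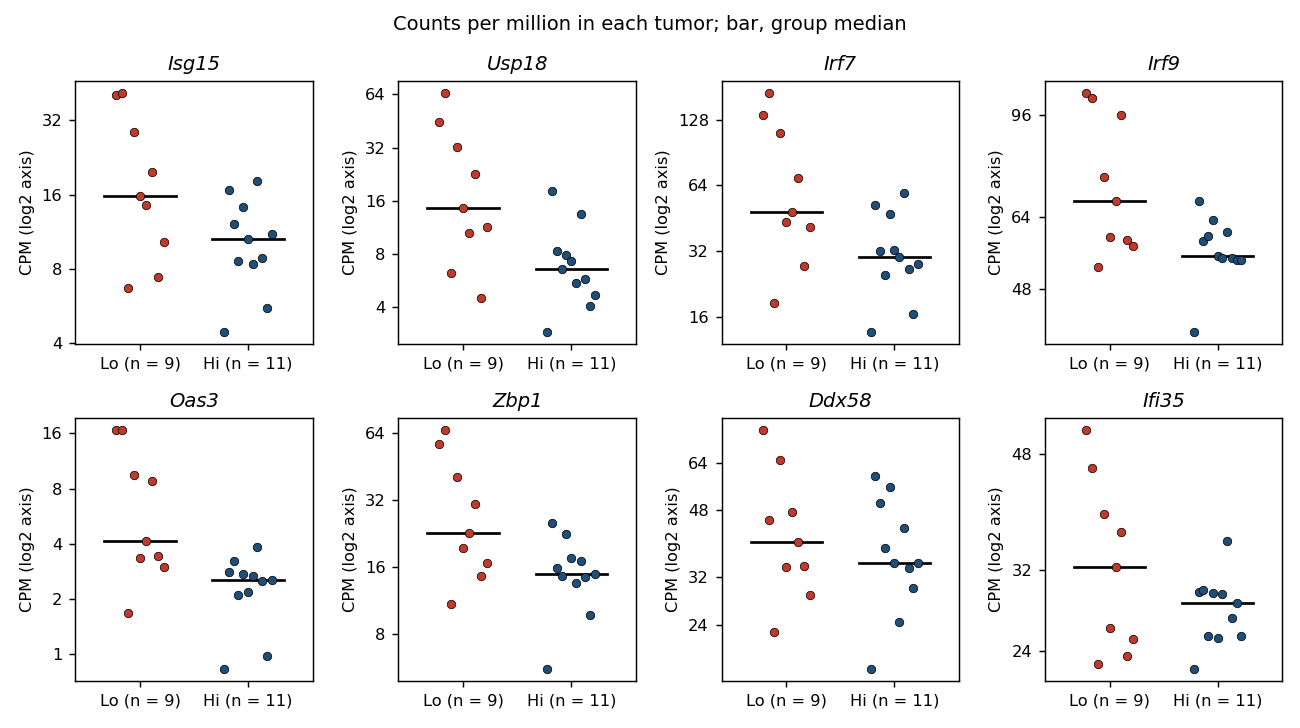
CPM (log2 axis) of 8 of the genes in each of 9 Lo and 11 Hi tumors (points, in the order of their numbers from left to right), with the group median (bar). In each panel the groups overlap, and the highest Lo tumor lies above all of Hi.

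No leukocyte, macrophage or T cell marker passed the same test between the groups. Since none of the 18883 genes passed it (0%), this does not set the markers apart from other genes. The log2 difference of the leukocyte markers had a median of -0.01 and that of the macrophage markers 0.01, with 0 of 9 and 0 of 8 called and none below an unadjusted p of 0.05. The T cell markers had a median of -0.58, lower in Lo, with 0 of 7 called and 1 below an unadjusted p of 0.05. Over all genes 5.53% had such a p, in either direction. The ribosomal RNA locus took a larger share in Lo, as given above, and with that locus left out the median difference of the 35 genes was 0.92.

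The second comparison asked whether the 35 genes followed the leukocytes in a tumor. A score was made from 9 leukocyte markers, as the mean of their standardized log2 CPM, and each gene was fitted on it across the 20 tumors. None of the 35 slopes passed the adjusted threshold (edgeR), although 2.11% of all genes did with a slope above 0. All 35 slopes were above 0, with a median of 0.19 log2 units per SD of the score and a range of 0.02 (Mx1) to 0.33 (Ifi44). At an unadjusted p below 0.05 there were 5, namely Ifit2, Gbp2, Ddx58, Dtx3l and Trim30a, which is 5 of 35 beside 10.1% of all genes. The lowest p was that of Ddx58, with a slope of 0.30 ± 0.09 (SE, adjusted p = 0.0787); DESeq2 called Ddx58 (adjusted p = 0.0258) and no other of the 35. Single tumors moved the median slope: it was 0.05 without Lo 1 and 0.32 without Lo 2. At an unadjusted p below 0.05 there were then 1 and 22 of the 35, beside 3640 and 3263 of the 18883 genes (edgeR, either direction). With a like score of the epithelial markers as a second covariate the median slope was 0.53. In that fit 28 of the 35 had such a p, beside 13.6% of all genes. These counts thus depended on the model and on single tumors.

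The tumors at the ends show the spread behind these slopes. Lo 1 and Lo 4 had leukocyte scores of 1.34 and 1.57, among the highest. Lo 2 and Lo 8, whose interferon-stimulated genes were also raised, had scores of -0.79 and -1.64. Lo 3 had the lowest score, -1.96, and low levels of these genes, whereas Hi 11 had a score of 0.86 and a median deviation of -0.48. With macrophage markers in place of leukocyte markers the median slope was 0.39 and none of the 35 passed, although 21 had an unadjusted p below 0.05, beside 18% of all genes. With T cell markers it was 0.02, in a fit that pooled Lo and Hi. These markers had a median log2 difference of -0.58, lower in Lo, whereas the 35 genes were higher there. The median r of the T cell markers with the median deviation of the 35 was 0.10 over all tumors, 0.14 within Lo and 0.54 within Hi. That difference between the groups was not tested. The T cell markers were low, with sums of 2.99 to 5.88 CPM in Lo and 3.47 to 8.43 in Hi. The macrophage markers included Fcgr1, which itself followed the 35 genes: its r with their median deviation was 0.77. The other macrophage markers had 0.01 to 0.44. A fit without Fcgr1 was not made, so its share in the slope of 0.39 was not tested. When the slopes of Lo and Hi were compared, none of the 35 and none of the 18883 genes passed (0%, edgeR's interaction test; at an unadjusted p below 0.05 there were 0 of the 35 and 450 of all genes, and DESeq2 called 3 genes, none of the 35).

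The genes differed in how steeply they followed one another. Each was set against the median deviation of the other 34 in the same tumors, and its slope is given in log2 units per 1 log2 unit of that median. The genes share libraries and scaling and were chosen as a family, so slopes and correlations are descriptions and carry no test. Pearson's r with that median over the 20 tumors was 0.79 for Ddx58 and 0.87 to 0.98 for the others, with a median of 0.96. Over the 18848 genes outside the 35 that passed the filter, the median r was -0.01. Within the 9 Lo tumors the median r of the 35 was 0.97, and within the 11 Hi tumors it was 0.93.

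Usp18 was the steepest, with a slope of 1.54, followed by Ifit3 at 1.43 and Oas3 at 1.43. Ifi44 had 1.29, Irf7 1.26, Isg15 1.12 and Zbp1 1.08, and in all 19 of the 35 had a slope above 1. Below 1 stood Gbp2 at 0.80, Parp14 at 0.71, Herc6 at 0.69, Stat2 at 0.64 and Ddx58 at 0.53. The shallowest were Irf9 at 0.42, Dtx3l at 0.40 and Ifi35 at 0.38. By role, the median slope was 1.15 for the antiviral effectors, 1.12 for the ISG15 system, 0.73 for the sensors, 0.64 for the transcription factors and 0.54 for the ADP-ribosylation genes. The 13 genes with an ISRE match had a median slope of 1.11 and the 12 with a promoter but no match 0.93, and the ranges overlapped (0.53 to 1.43 and 0.38 to 1.30).

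**Figure D3:**
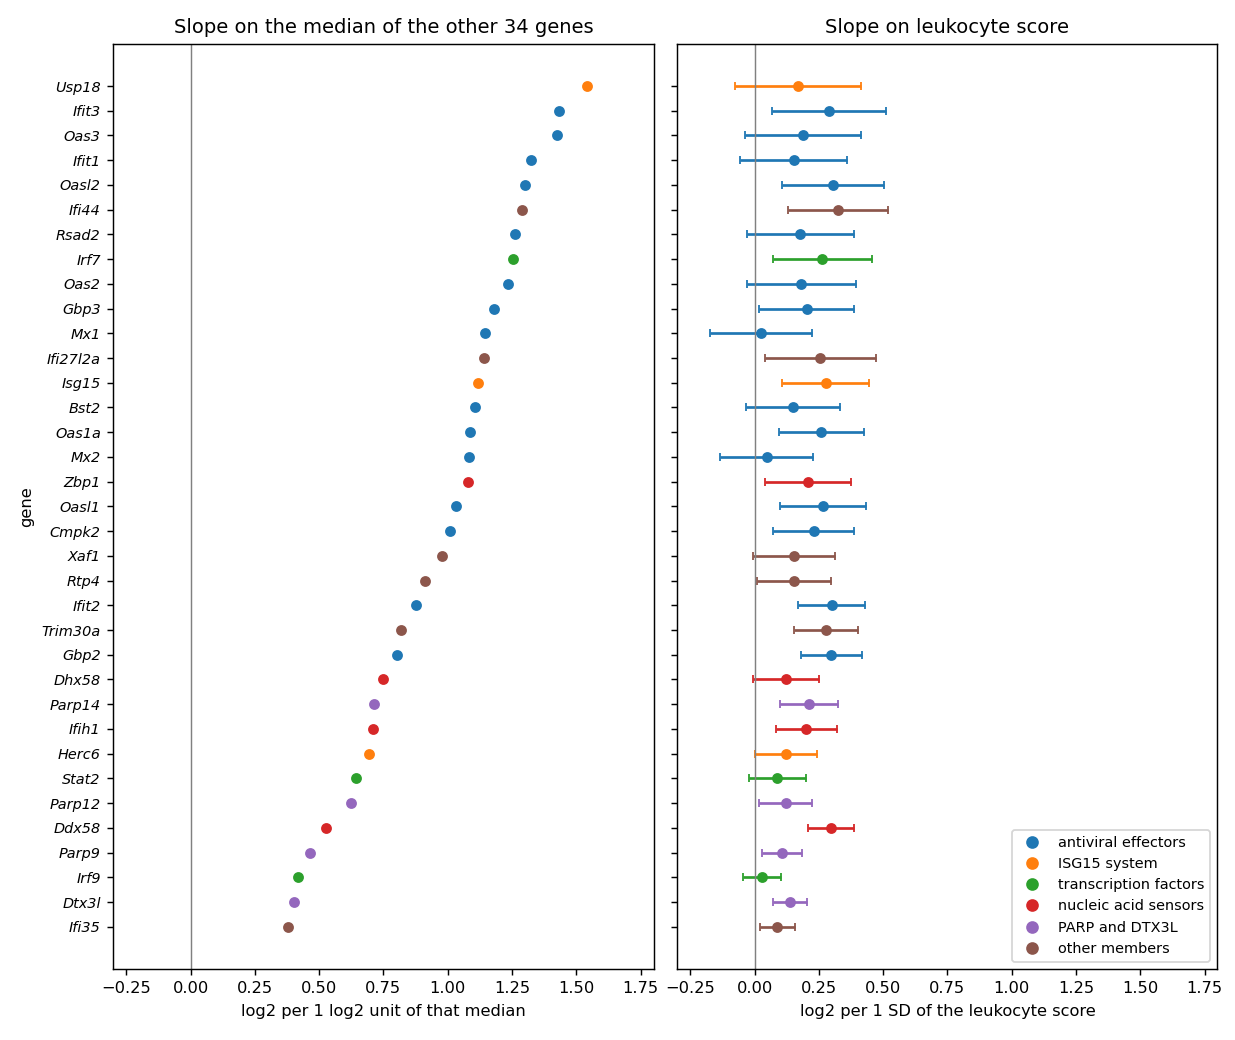
Slope of each of the 35 genes (points, colored by role) on the median deviation of the other 34 (left, log2 units per 1 log2 unit) and on the leukocyte score (right, log2 units per 1 SD; bars are SE), in 20 tumors. On the left the slopes run from 0.38 for Ifi35 to 1.54 for Usp18, and on the right from 0.02 for Mx1 to 0.33 for Ifi44.

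The other genes of the pathway are given from the ligands down to the targets. The ligands were close to absent: none of the 21 interferon genes passed the filter, 13 had no count in any tumor, and the highest count of any was 12. Of 14 alpha interferon genes, only Ifna7 had a count, 1 in Hi 4. Ifnb1, interferon beta, had 12 counts in Lo 8, 10 in Lo 11, 4 in Lo 1, 2 each in Lo 2, Lo 3, Lo 7 and Hi 7, and 0 in the rest. Lo 4, the highest tumor after Lo 1 and Lo 2 in the 35 genes, had no Ifnb1 count, and Lo 11, with 10, was near the middle in them. Ifnk (interferon kappa) had the most counts of any ligand over the 20 tumors, 53 in 12 tumors, with 0 to 8 in each. Ifnz (interferon zeta) had 49 in 16 tumors, also with 0 to 8 in each. Both were counted in Lo and in Hi, in 5 and 7 tumors for Ifnk and in 7 and 9 for Ifnz. Ifng had 0 to 5 counts in a tumor and 24 in all, and Ifne had 6 in Hi 2 and 2 each in Hi 8 and Lo 8. The lambda genes were counted in Lo 1 only, with 4 counts of Ifnl3 and 1 of Ifnl2. A count of 0 allows up to 3 counts, which is 0.0458 to 0.0774 CPM, so lower levels were not detectable at this depth.

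Receptors and proximal kinases were expressed in every tumor. Over the 20 tumors the r with the median deviation of the 35 ran from -0.46 (Il10rb) to 0.26 (Ifnar2) over 9 genes, beside 0.79 to 0.98 for the 35 themselves. The median r of the 9 was -0.28 within Lo and 0.49 within Hi, where Ifngr1, a chain of the interferon gamma receptor, had 0.74 and Jak1 0.62. The difference between the groups was not tested. Ifnar1, the type I receptor chain, had 66.2, 72.1 and 79.5 CPM in the lowest, median and highest Lo tumor and 66.8, 70.0 and 79.5 in Hi, with r = -0.23. The 14 sensors and adaptors outside the 35 had a median r of 0.30 and a range of -0.39 to 0.90. Ifi204 was the closest, with r = 0.90, followed by Tlr9 (0.61) and Tlr7 (0.56). Mavs, Tmem173 (STING), Mb21d1 (cGAS) and Irf3 had r of 0.33, -0.34, 0.19 and -0.21. Among 7 negative regulators the closest were Adar (r = 0.90), which edits double-stranded RNA, and Samhd1 (r = 0.83), which degrades nucleotides.

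Downstream genes outside the 35 come next. The enzymes that attach ISG15 had r of 0.96 (Ube2l6) and 0.90 (Uba7). The 20 other interferon-stimulated genes had a median r of 0.87, with a range of 0.68 to 0.98, led by I830012O16Rik (Ifit3b). That gene and Oas1g (r = 0.96) are close copies of Ifit3 and Oas1a, so reads may be split between them. The 17 genes linked to interferon gamma had a median r of 0.90, led by Irgm2 (0.98) and Igtp (0.96), GTPases that act on vacuoles of intracellular pathogens. The lowest were Irf8 (0.14) and Ciita (0.28), the activator of class II antigen presentation. Between Lo and Hi none of these genes passed the adjusted threshold (edgeR). At an unadjusted p below 0.05, 13 of the 17 genes linked to interferon gamma and 11 of the 20 other interferon-stimulated genes were higher in Lo, beside 3.5% of all genes. Of the 9 receptors and kinases 1 had such a p, Il10rb, and it was lower in Lo (-0.16 on the log2 scale). These lists were put together with earlier results of these data known, and their counts are descriptions.

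**Figure D4:**
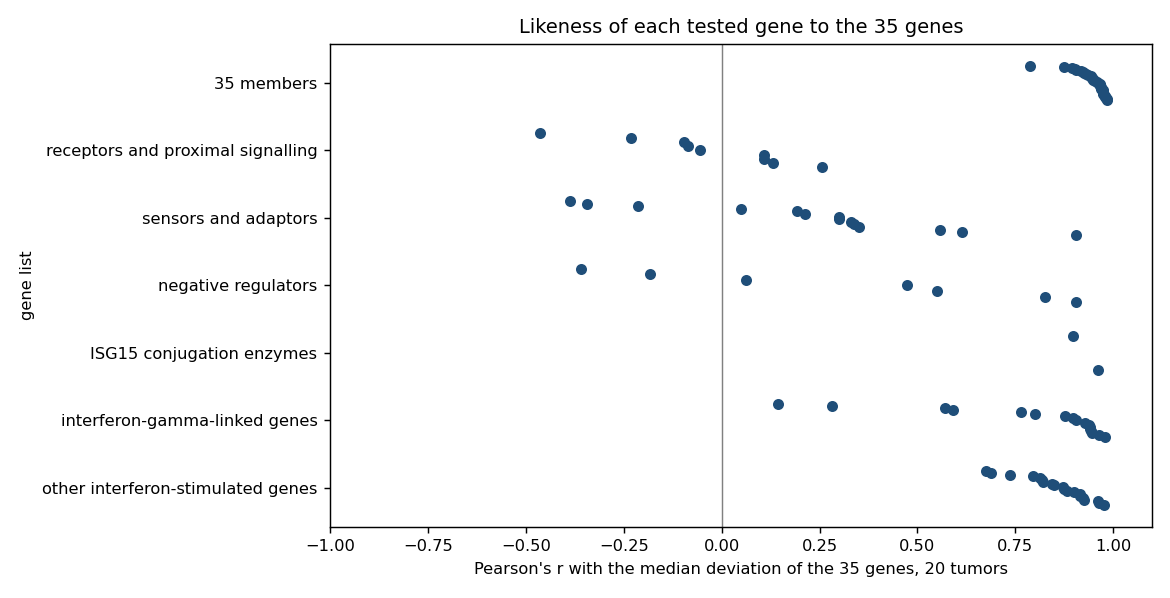
Pearson's r over 20 tumors with the median deviation of the 35 genes, for each tested gene in 6 other lists of the pathway and for the 35 (each against the median of the other 34). Each point is 1 gene, and vertical position within a list only separates points. The receptors lie between -0.46 and 0.26, and the 35 genes between 0.79 and 0.98.

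Isg15 and Ddx58 are the members on chromosome 4. The paper reports clonal loss of a copy of this chromosome in the tumors it karyotyped. It also reports that expressed alleles along the chromosome were skewed toward FVB. A dosage was computed for each tumor, as the median log2 deviation from the gene median over 738 other chromosome 4 genes (mean of at least 5 CPM), minus the same over all autosomal genes. It ran from -0.21 in Lo 2 to 0.37 in Hi 5. The dosage is relative to the median of these same tumors, so its sign does not give loss or gain against 2 copies. Ddx58 rose with it, with Pearson's r of 0.68 (p = 0.00091) and Spearman's rho of 0.72 (p = 0.00055) by two-sided permutation tests over 20 tumors, and adjusted p of 0.00182 for both over the 4 tests made. Without the 2 tumors farthest from the median dosage, Lo 2 and Hi 5, r was 0.86, and it was 0.67 within Lo and 0.81 within Hi. Ddx58 was added to this comparison after the data were seen. Its r was not set beside those of the other chromosome 4 genes, so whether it is unusual for that chromosome was not tested. For Isg15 r was 0.25 (p = 0.291) and rho 0.30 (p = 0.204, adjusted p of 0.291 and 0.271). Without Lo 2 and Hi 5 it was 0.61 (p = 0.00644), and it was 0.19 within Lo and 0.64 within Hi, so the value for Isg15 turned on those 2 tumors. Lo 2 had the highest Isg15 of the series, 41.3 CPM, at the lowest dosage. It had 45.2 CPM of Ddx58, beside 78.2 in Lo 1. Over the 35 genes, the correlation with the dosage of the gene's own chromosome had a median of -0.14, beside 0.18 over all 18228 autosomal genes. For these 2 medians the gene itself was not left out of the dosage.

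**Figure D5:**
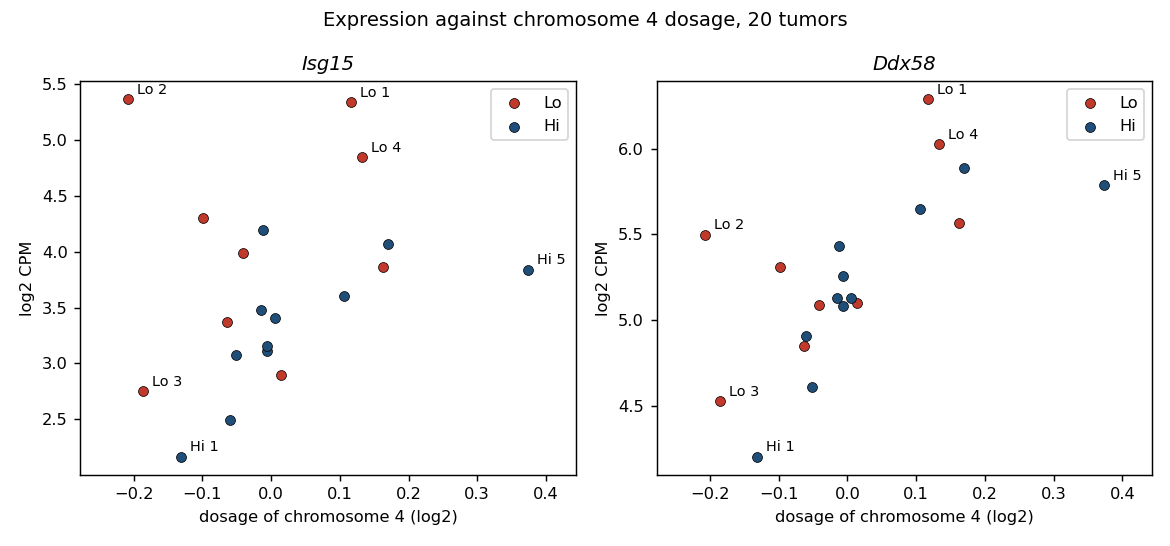
Log2 CPM of Isg15 (left) and Ddx58 (right) against the log2 dosage of chromosome 4 in 9 Lo and 11 Hi tumors. Lo 2 combines the lowest dosage, -0.21, with the highest Isg15, and Ddx58 rises with the dosage (r = 0.68).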

How the data were processed

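RNA of 20 frozen breast tumors was made into TruSeq mRNA libraries. The table the authors deposited holds unnormalized read counts for 43346 genes in 1 column per tumor. The submitters' processing notes name TopHat2 2.0.12, featureCounts 1.4.4 and the builds mm10 and hg19, and the strand setting and annotation release are not given in the sources used here. Overlapping genes and close copies (Gbp3 and Gbp5, Ifit3 and I830012O16Rik, Oas1a and Oas1g, Mx1 and Mx2) are therefore uncertain. Tumors were grouped by their names, which is all the labels give, and p-values measure the spread between tumors.

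CPM were computed with edgeR 4.0.16 in R 4.3.3 (filterByExpr, TMM; log2 values with a prior count of 2). The tests were edgeR's quasi-likelihood tests; p was adjusted by Benjamini-Hochberg over every gene that passed the filter (threshold 0.05), and DESeq2 1.42.0 was an alternative. The scripts were tested on simulated data. Permutation tests used 100000 permutations. The 35 genes and all lists were chosen with earlier results of these data known. Genes given in full were Isg15, Irf7, Stat2, Irf9 and, in each role group, the genes with the largest and smallest SD, and outside the 35 the ligands with a count; others are named as range ends or examples, chosen after their values were seen, as were the slopes and r on the median of the 35. Comparisons with 1 further gene of the pathway are not reported here. Allele counts are not used here.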

Additional observations from a re-analysis of the deposited data

How the results depend on the processing

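The count of the 35 genes past the threshold for Lo against Hi stayed 0 under DESeq2, RLE factors, no filter and removal of the ribosomal RNA locus. For the test of Lo against Hi slopes it also stayed 0 in these settings. Over single tumors left out, the count was 0 for Lo against Hi (median log2 difference 0.73 to 1.04, 29 to 34 genes at an unadjusted p below 0.05) and 0 to 1 for the leukocyte slope (Ddx58 without Lo 11, Ifi27l2a without Lo 2), and the median pairwise r was 0.90 to 0.92.

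The leukocyte slope gave 1 call (Ddx58) under DESeq2 and 1 (Ddx58) with an epithelial score as a second covariate, where the median slope was 0.53. At an unadjusted p below 0.05 (edgeR) there were 28 of the 35 with that covariate, beside 13.6% of all genes. With Lo or Hi as a covariate there were 10, beside 17%, and with T cell markers 1, beside 13.8%. Over single tumors left out there were 1 to 22. With T cell markers the slopes of Irf7 (-0.021), Oas3 (-0.097) and Usp18 (-0.21) were below 0. With single tumors left out, slopes were -0.030 to 0.215 for Stat2, -0.038 to 0.113 for Irf9, -0.048 to 0.394 for Oas3 and -0.017 to 0.404 for Usp18, each lowest without Lo 1. Over all genes, calls in either direction on the leukocyte score were 476, but 963 under DESeq2, 230 with macrophage markers, 133 with the epithelial covariate, 78 with T cell markers and 49 without the 2 farthest tumors. The cause was not tested. The median pairwise r was 0.86 by Spearman's rho, 0.86 without Lo 1 and Lo 2 and 0.85 within Hi; these last 2 settings were chosen after the data were seen, as were fits of the leukocyte slope within Lo and within Hi, which called 0 of the 35 (edgeR; 1 and 16 at an unadjusted p below 0.05, beside 11% and 7.75% of all genes). For Isg15 and chromosome 4 dosage, r was 0.61 without the 2 farthest tumors.

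Lo and Hi share 9 numbers. Same-numbered tumors had correlations of deviations of -0.42 to 0.21, over 0.1 in 3 of 9 and best with the own number in 1. The tumors were therefore not treated as pairs. The labels do not say what the numbers mean, and these correlations cannot show it. An edgeR fit with a replicate block used only tumors with a shared number, so Hi 5 and Hi 10 were left out. In that fit 0 of the 35 passed and the median difference was 0.73. Hi 10 was among the lowest tumors in these genes (median deviation -0.85). Effects of the block and of the tumors left out were not tested apart. At an unadjusted p below 0.05 there were 25 of the 35, beside 4.62% of all genes.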

Other observations

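Lo 1 and Lo 2 had median deviations of 1.67 and 1.61 over the 35 genes but differed in single genes. Ifi27l2a was 136 CPM in Lo 2 and 89.8 in Lo 1, Usp18 was 65.0 and 44.5, and Ifit1 was 60.5 and 45.4. The reverse held for Ddx58, with 45.2 CPM in Lo 2 and 78.2 in Lo 1, for Ifit2, with 22.4 and 29.2, and for Gbp2, with 51.4 and 65.0. Each is 1 tumor, so these differences have no replicate.

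The level of a gene said little about its slope on the median of the others: across the 35 genes, log2 of the median RPKM and the slope had r = -0.23, and genes are not independent replicates. Of the 8 macrophage markers, Fcgr1 had the highest r with the median of the 35 genes over the 20 tumors, 0.77, and the other 7 had 0.01 to 0.44. The 5 adipocyte markers had r of -0.51 to -0.26. These values are descriptions, with no test.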
